A study of Mus musculus with 16 samples.

Results

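Bile acid synthesis, bile acid transport and their control by the nuclear receptor FXR were followed through 10 mouse genes, taken by symbol from the array's probe annotation: Cyp7a1, Cyp8b1, Cyp27a1, Cyp7b1, Slc10a1, Abcb11, Nr0b2, Nr1h4, Baat and Slc27a5. They are 10 of the 16593 genes named on the array and were read by 12 of its 25697 probes, 3 of them for Cyp27a1 and 1 for each other gene.

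Brain and liver RNA of 8 male mice (strain C57BL/6J, age 17 weeks) was measured on 1-colour bead arrays made by Illumina, 16 in all. The 4 groups of 4 arrays were wild-type liver, homozygous liver, wild-type brain and homozygous brain. Homozygous mice carried the knock-in allele Pts-R15C-ki, with the change R15C in Pts on both chromosomes, and wild-type mice were the controls, with the allele named in the labels of both genotypes. Pts encodes pyruvoyl-tetrahydropterin synthase, an enzyme of tetrahydrobiopterin synthesis. No agent was named for either genotype, each mouse gave both tissues, and a number shared between the genotypes does not link their mice. The feeding state, the hour of collection and the part of the brain taken are not given in the sources used here.

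Bile acids are made from cholesterol in hepatocytes. In the classic route Cyp7a1 adds the first hydroxyl group and sets the rate, and Cyp8b1 directs the product towards cholic acid; in the alternative route Cyp27a1 oxidizes the side chain and Cyp7b1 hydroxylates the resulting oxysterols. Slc27a5 and Baat then join bile acids to taurine or glycine, Abcb11 (the bile salt export pump) secretes them into bile, and Slc10a1 (the transporter NTCP) takes them back up from portal blood. Bile acids bind FXR, encoded by Nr1h4, which induces Nr0b2 (the corepressor SHP) and Abcb11 and, through SHP and through the intestinal hormone FGF15, lowers Cyp7a1.

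Between 11785 and 12315 probes were detected on the liver arrays and between 13241 and 14576 on the brain arrays. Levels below are log2 of background-corrected signal, quantile-normalized within a tissue unless stated, and a probe was tested where it was detected (detection p-value under 0.05) on at least 4 of the 8 arrays of a tissue. The livers of wild-type mice 1 and 2 stood apart from the other 6: the first principal component held 62.2% of the variance, and their scores of -43.8 and -46.5 faced scores of 2.79 to 20.9 elsewhere. In brain the first component (51.5%) separated 4 brighter from 4 dimmer arrays, 2 of each genotype on either side. The 2 probes of the targeted gene Pts were higher in homozygous liver by 0.90 (SE 0.20) and 0.58 (SE 0.12) on the log2 scale, with limma adjusted p of 0.0625 and 0.0541. In homozygous brain they were higher by 0.70 (SE 0.19) and 0.39 (SE 0.15), with limma adjusted p of 0.99996 for both. Probe sequences were not used here, so these values do not check the genotype. Hepatocyte markers Apoa1 and Ttr were among the bright probes of the liver arrays, with wild-type means of 14.67 and 14.69, whereas the Alb probe was dim at 5.06.

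The first comparison placed the 10 genes in liver against brain of the same 4 wild-type mice, with all 16 arrays quantile-normalized together. Of the 12 probes, 11 probes of 9 genes were tested, and all 11 were higher in liver by limma. For 7 of them, detected on 0 or 1 wild-type brain arrays, this was fixed by the detection filter, which they passed only through liver, so nothing is read from that count. The other 4 probes, of Cyp27a1 and Cyp7b1, were measured in both tissues. Over the whole array 77.2% of 14375 probes passed in either direction and 38.8% passed as higher in liver.

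Only Cyp27a1 and Cyp7b1, the alternative-route pair, were detected on every brain array. Cyp7b1 had a level of 12.87 ± 0.35 (SD, n = 4) in wild-type liver and 8.43 ± 0.29 in brain, a 21.8-fold difference (log2 4.44, SE 0.20, limma adjusted p = 5.2e-09). The 3 probes of Cyp27a1 gave 60.1-fold, 51.5-fold and 41.8-fold higher levels in liver, with adjusted p of at most 5.87e-11. With the authors' values the log2 differences were smaller, at 3.63 for Cyp7b1 and 4.25, 4.38 and 4.03 for the Cyp27a1 probes. For these genes the brain levels, although far lower, were above background in all animals.

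Classic-route and conjugation genes were not well above background on any wild-type brain array, so their ratios are lower bounds, computed against the lowest detected signal of each brain array. Cyp8b1 was at least 165.4-fold higher in liver, Slc27a5 at least 177.1-fold and Baat at least 77.1-fold. Cyp7a1 was at least 17.2-fold higher, with the widest spread of the liver levels (8.79 ± 1.99, SD, n = 4). Nr1h4, the FXR gene, was at least 89.0-fold higher in liver. No p-value is given for these 5 genes, since the detection filter fixed their direction. These bounds hold for the background-corrected scale only. With no background subtraction the fitted log2 difference went from 7.63 to 5.13 for Cyp8b1, from 7.87 to 5.29 for Slc27a5, from 6.67 to 4.13 for Baat, from 4.51 to 2.38 for Cyp7a1 and from 6.84 to 4.30 for Nr1h4, and with the authors' values the 5 differences were 4.98, 5.13, 4.11, 2.51 and 4.27.

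The transporter Abcb11 had a level of 11.09 ± 0.30 (SD, n = 4) in wild-type liver. It was detected on 1 of the 4 wild-type brain arrays, so neither a fold nor a p-value is given. Slc10a1, which reads dimly on this array even in liver (6.16 ± 0.64), was at least 2.79-fold higher there. Its fitted log2 difference of 1.85 was 0.60 with no background subtraction. The SHP gene Nr0b2 was detected on 0 of the 16 arrays and gave no level in either tissue. A fit with the mouse as a block kept the calls of the Cyp27a1 and Cyp7b1 probes, which were measured in both tissues.

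**Figure D1:**
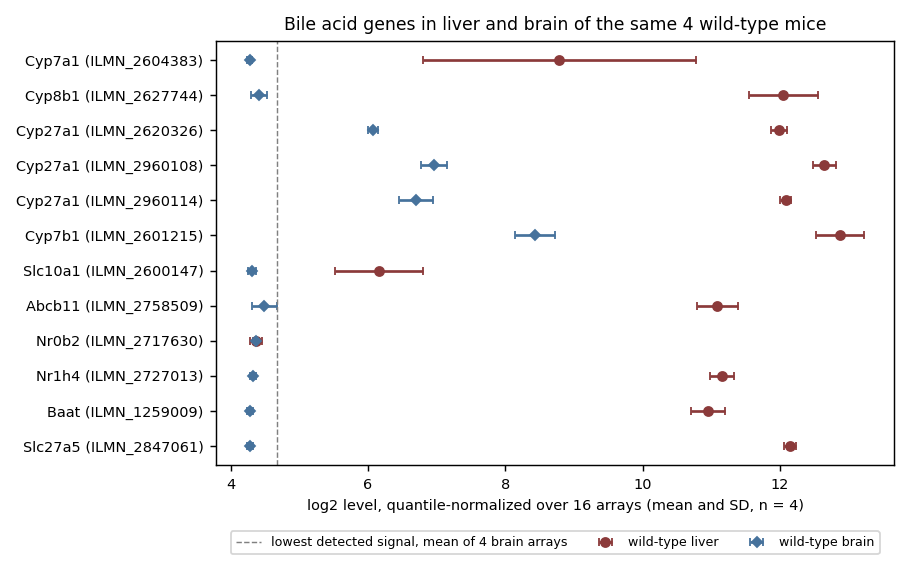
Log2 level of each of the 12 member probes (horizontal axis, quantile-normalized over 16 arrays) in wild-type liver (circles) and wild-type brain (diamonds), as mean and SD over 4 mice, with the mean lowest detected signal of the brain arrays as a dashed line. Only the Cyp27a1 and Cyp7b1 probes lie clearly to the right of that line in brain, and Nr0b2 lies to its left in both tissues.

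The comparison of homozygous with wild-type liver asked which of these genes differ with the Pts genotype. Of the 12 probes, 11 were tested and 0 passed limma's adjusted p of 0.05, against a background of 0.903% (108 of 11955 probes, with 0.368% higher and 0.535% lower). At an unadjusted p under 0.05 there were 4, those of Cyp8b1, Slc10a1, Cyp7b1 and Slc27a5, against a background of 22.6%. The log2 difference was above 0 for 8 probes and below 0 for 3, with a median of 0.07 against 0.02 over all probes tested. Groups did not overlap for 3 probes (Cyp8b1, Slc10a1 and Slc27a5), all higher in homozygous liver, where 13.0% of all probes did not overlap 6.73% with the homozygous group higher and 6.22% with it lower. Limma with array weights called 6 of the 11, among 2928 calls in the whole table, and a fit over all 16 arrays called 2, among 798. In these bulk tissues fewer cells of a type and less RNA per cell cannot be told apart.

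Cyp7a1, the rate-setting enzyme, split the wild-type livers. Its log2 levels were 7.16, 6.25, 10.57 and 10.35 in wild-type mice 1 to 4 and 10.71, 10.67, 10.10 and 10.03 in homozygous mice 1 to 4. In deposited signal the low livers read 233.8 and 169.4, and the other 6 read between 1126 and 1839. Wild-type mice 1 and 2 were thus low, and wild-type mice 3 and 4 lay within the homozygous range. The group means were 8.58 ± 2.20 (SD, n = 4) and 10.38 ± 0.36.

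The fitted difference for Cyp7a1 was 1.80 on the log2 scale (SE 0.89, 95% interval -0.19 to 3.79, limma adjusted p = 0.259), and the exact two-sided permutation p was 0.286. This difference was 1.37 with no background subtraction and 1.19 with the authors' values. With wild-type mice 1 and 2 left out it was -0.08 (SE 0.21, adjusted p = 0.895). This member's value therefore rests on these 2 livers, and its interval holds both no difference and a large one.

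Cyp8b1, the enzyme of the cholic acid branch, had levels of 12.26, 11.77, 13.02 and 11.94 in wild-type livers and 13.20, 13.53, 13.18 and 13.33 in homozygous livers. Every homozygous liver was above every wild-type liver, the closest pair being wild-type mouse 3 and homozygous mouse 3. The difference was 1.06 on the log2 scale (SE 0.24, 95% interval 0.52 to 1.60), or 2.09-fold, with a limma adjusted p of 0.0699. The exact permutation p was 0.0286, the smallest that 4 against 4 arrays allow. An absolute log2 difference of 1.06 or more was seen in 1.80% of all tested probes. For Cyp8b1 the difference was 1.05 with no background subtraction and 0.81 with the authors' values.

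Unlike that of Cyp7a1, the difference for Cyp8b1 had the same sign and most of its size without wild-type mice 1 and 2, at 0.82 (SE 0.25, adjusted p = 0.244). That fit left 2 wild-type livers, mouse 3 at 13.02 and mouse 4 at 11.94, against homozygous levels of 13.18 to 13.53. Its value therefore rests mostly on wild-type mouse 4. Without wild-type mouse 3 the difference was 1.33 (adjusted p = 0.00749), with array weights 1.14 (0.00663) and in the fit over all 16 arrays 0.94 (0.00721), so the call depends on these settings. They were the only 3 of 20 alternative settings that passed, and limma adjusted p reached 0.244 among the others. Cyp8b1 lies on chromosome 9, as does Pts, 71.4 Mb away in the RefSeq table of GRCm38.p6. The RefSeq promoter tables held windows for 6 of the 10 genes, and those of Cyp8b1 and of the 2 transporters are shown because they carry textbook elements of this pathway or belong to the members with the clearest group separation. Each is the 250 bases before the start, on the minus strand of GRCm38.p6, written 5′ to 3′.

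The Cyp8b1 window is chr9:121916306-121916555. Capitals mark CAAAGTCCA, a form of the element bound by the hepatocyte factor HNF4 (its first base 67 bases before the start), and the TATA box TATAAA (31 bases before it).
Cyp8b1: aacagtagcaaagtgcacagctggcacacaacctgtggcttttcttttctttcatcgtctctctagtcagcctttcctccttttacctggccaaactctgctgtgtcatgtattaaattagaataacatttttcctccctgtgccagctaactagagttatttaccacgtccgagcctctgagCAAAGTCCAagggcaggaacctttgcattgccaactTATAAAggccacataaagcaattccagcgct
Both strands of all windows were searched, and the 2 motifs do not overlap. CAAAGTCCA was in 0.384% of 32851 mouse windows and in no other member's window, and TATAAA was in 12.4%. A match in letters describes the window and is no measure of binding.

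Genes of the alternative route were read next, and the 2 routes were not compared by a test. Cyp7b1, the oxysterol hydroxylase, had levels of 13.12, 13.58, 13.34 and 12.65 in wild-type livers and 12.53, 13.02, 12.07 and 12.23 in homozygous livers. The groups overlapped, since wild-type mouse 4 lay below homozygous mouse 2. The difference was -0.71 on the log2 scale (SE 0.24, 95% interval -1.25 to -0.17, limma adjusted p = 0.145), with homozygous livers at 0.612 of the wild-type level and an exact permutation p of 0.0571. Without wild-type mice 1 and 2 it was -0.53 (SE 0.27, adjusted p = 0.444).

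Cyp27a1, the mitochondrial side-chain hydroxylase, differed little between genotypes on any of its 3 probes. For the brightest probe the levels were 12.75, 12.78, 13.17 and 12.96 in wild-type livers and 12.87, 13.05, 12.93 and 12.86 in homozygous livers. The difference was 0.01 (SE 0.12, 95% interval -0.25 to 0.27, limma adjusted p = 0.963). The other probes gave 0.06 (SE 0.12) and -0.01 (SE 0.10), with adjusted p of 0.811 and 0.962. The intervals of the 3 probes lay between -0.25 and 0.34, so a difference as large as the fitted value of Cyp8b1 lies outside them.

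Of the conjugation pair, Slc27a5, the bile acid CoA ligase, had levels of 12.21, 12.39, 12.39 and 12.42 in wild-type livers and 12.57, 12.59, 12.70 and 12.52 in homozygous livers. The groups did not overlap, but the gap was small, with a difference of 0.24 (SE 0.09, 95% interval 0.03 to 0.45), or 1.18-fold. The limma adjusted p was 0.180, and the exact permutation p was 0.0286. Without wild-type mice 1 and 2 the difference was 0.18 (SE 0.11, adjusted p = 0.510).

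Baat, the amino acid transferase that completes conjugation, read 11.27, 11.23, 10.70 and 10.79 in wild-type livers and 10.83, 10.95, 11.00 and 11.18 in homozygous livers. Here wild-type mice 1 and 2 were the highest of all 8 and wild-type mice 3 and 4 the lowest. The difference was -0.009 (SE 0.15, 95% interval -0.35 to 0.33, limma adjusted p = 0.979). It became 0.24 (SE 0.13, adjusted p = 0.449) when the first 2 wild-type mice were left out, and then the groups did not overlap.

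Slc10a1, the uptake transporter, had levels of 5.47, 4.94, 6.05 and 6.43 in wild-type livers and 7.09, 6.53, 7.06 and 6.77 in homozygous livers. All homozygous livers were above all wild-type livers, narrowly so for homozygous mouse 2 and wild-type mouse 4, and wild-type mouse 2 was the lowest. The difference was 1.14 on the log2 scale (SE 0.29, 95% interval 0.49 to 1.79), or 2.20-fold, with a limma adjusted p of 0.0883 and an exact permutation p of 0.0286. The probe was dim, with deposited signals between 126.1 and 238.1, and its difference was 0.49 (SE 0.12) with no background subtraction and 0.55 (SE 0.14) with the authors' normalized values. The value was 0.62 (SE 0.19, adjusted p = 0.231) without wild-type mice 1 and 2. Adjusted p fell to 0.0474 without wild-type mouse 3, to 0.0478 without wild-type mouse 4, to 0.00758 with array weights and to 0.0106 in the fit over all 16 arrays. These were the only 4 of 20 alternative settings that passed, and limma adjusted p reached 0.238 among the others.

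The window before the outer of 2 listed starts of Slc10a1 is chr12:80968706-80968955. Capitals mark TATAAA read on the opposite strand, 128 bases before the start.
Slc10a1: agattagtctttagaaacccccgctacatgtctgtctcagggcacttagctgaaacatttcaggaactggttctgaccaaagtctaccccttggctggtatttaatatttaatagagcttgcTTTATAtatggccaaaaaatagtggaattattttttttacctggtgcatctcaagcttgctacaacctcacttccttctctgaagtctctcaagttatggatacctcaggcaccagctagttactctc
Neither CAAAGTCCA nor the FXR-type inverted repeat was found in these letters or in the window of the second start.

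Abcb11, the export pump and a direct FXR target, read 10.85, 10.86, 11.45 and 11.49 in wild-type livers and 11.43, 11.28, 11.55 and 11.45 in homozygous livers. Wild-type mice 1 and 2 were again low, and wild-type mice 3 and 4 lay inside the homozygous range. The difference was 0.26 (SE 0.17, 95% interval -0.11 to 0.64, limma adjusted p = 0.369), and -0.04 (SE 0.12, adjusted p = 0.898) without wild-type mice 1 and 2.

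The Abcb11 window is chr2:69342617-69342866. Capitals mark GGCCATTGACC, a match on the opposite strand, 62 bases before the start, to the FXR-type inverted repeat, in which facing receptor half-sites are spaced by 1 base.
Abcb11: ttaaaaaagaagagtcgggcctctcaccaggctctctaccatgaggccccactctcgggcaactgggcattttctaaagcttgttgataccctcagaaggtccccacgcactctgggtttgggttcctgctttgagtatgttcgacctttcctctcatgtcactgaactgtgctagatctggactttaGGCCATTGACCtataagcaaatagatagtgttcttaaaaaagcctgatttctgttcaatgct
This motif was in 0.198% of the 32851 windows and in none of the other members' windows.

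Of the control genes, the FXR gene Nr1h4 read 11.31, 11.41, 11.29 and 10.96 in wild-type livers and 11.20, 11.29, 11.53 and 11.25 in homozygous livers. The groups overlapped widely, with a difference of 0.07 (SE 0.13, 95% interval -0.21 to 0.36, limma adjusted p = 0.757). Without wild-type mice 1 and 2 it was 0.19 (SE 0.14, adjusted p = 0.611). Nr0b2 could not be followed: its deposited signals in liver lay between 103.1 and 112.8 and none passed detection.

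**Figure D2:**
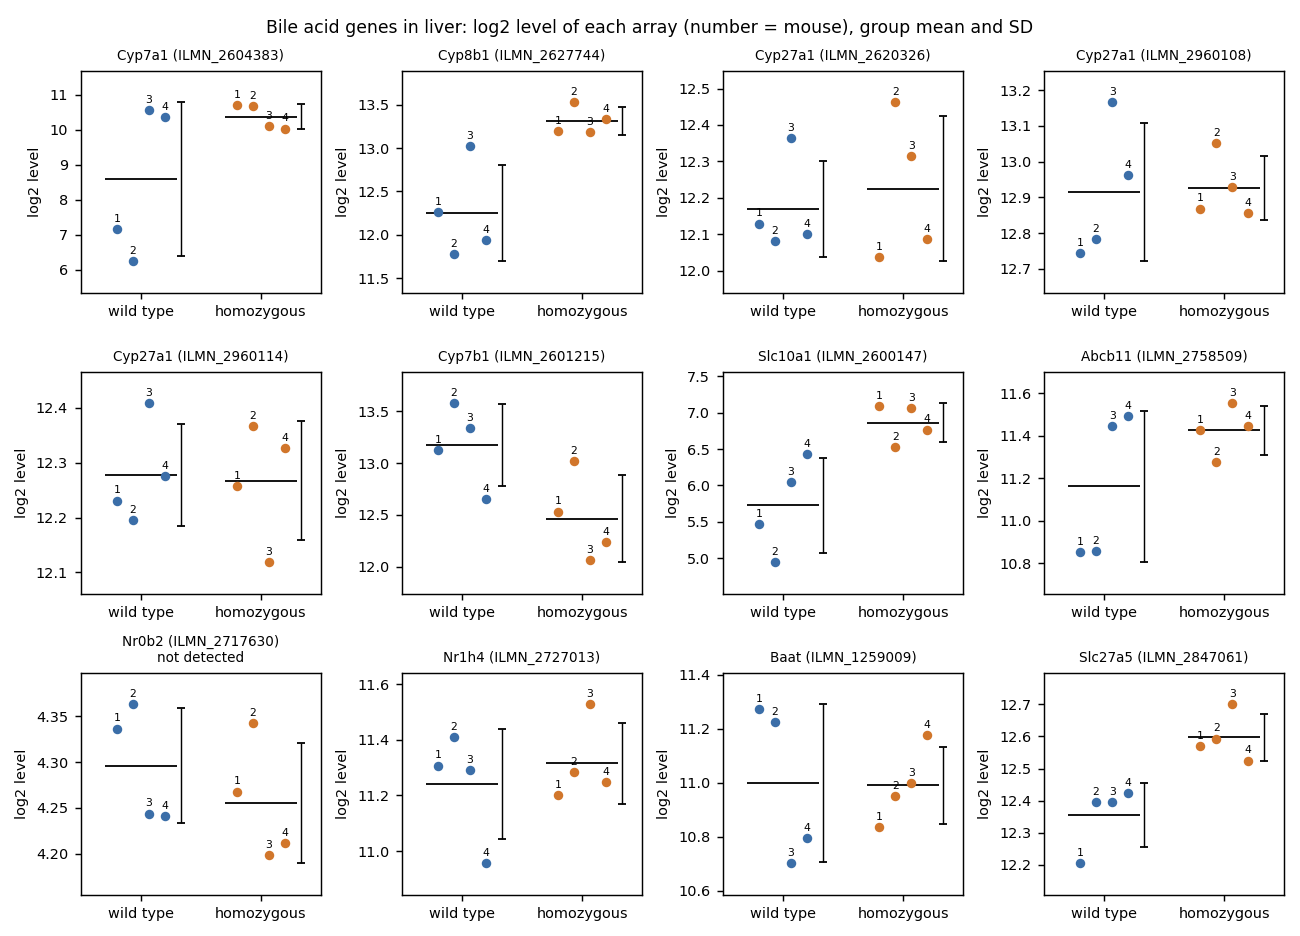
Log2 level of each member probe (vertical axis, scale set per panel) on each of the 8 liver arrays, numbered by mouse, with the group mean as a line and the SD as a bar (n = 4). Cyp8b1, Slc10a1 and Slc27a5 do not overlap between genotypes, Cyp7a1 and Abcb11 are low in wild-type mice 1 and 2, and the Nr0b2 panel shows a probe that was not detected.

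**Figure D3:**
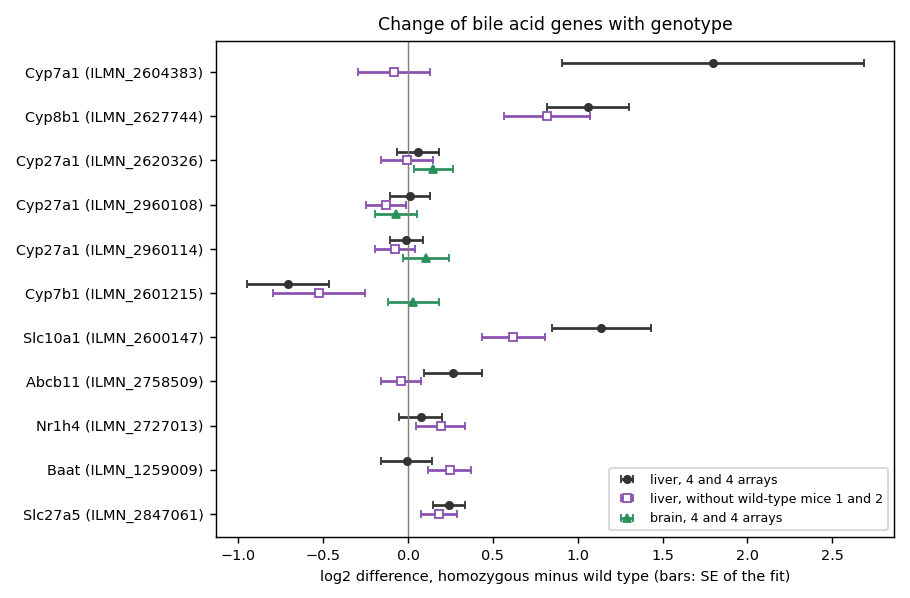
Log2 difference, homozygous minus wild type, of each tested member probe with the SE of the fit: liver (filled circles), liver without wild-type mice 1 and 2 (open squares) and brain (triangles). When the 2 mice are left out Cyp7a1 moves from 1.80 to -0.08, Cyp8b1 from 1.06 to 0.82 and Slc10a1 from 1.14 to 0.62.

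With wild-type mice 1 and 2 left out, 2 member probes had an unadjusted p under 0.05, those of Cyp8b1 and Slc10a1, against 13.1% of 12026 probes, and 0 passed the adjusted threshold (background 0.175%). Groups of 2 and 4 livers did not overlap for 4 member probes, Cyp8b1, Slc10a1, Baat and Slc27a5, against a background of 22.9%.

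Acute phase genes were listed because they were known to move with the livers of wild-type mice 1 and 2. Their match to these livers, and their difference between genotypes, are therefore not independent of that choice. The list of 8 acute phase genes, secreted liver proteins induced in inflammation, had a mean level, centred on all 8 arrays, of 2.24 in wild-type mouse 1, 2.31 in mouse 2, -0.19 in mouse 3 and 0.81 in mouse 4. The homozygous livers lay between -1.62 and -1.17. All 8 genes were below 0 in the comparison, with a median of -2.40. By limma 3 of them fell, against 0.535% of all tested probes: Saa1 (-4.85, adjusted p = 0.0455), Saa2 (-4.37, 0.0443) and Orm1 (-1.08, 0.0455). The call was kept in 4 of 20 alternative settings for Saa1, 7 of 19 for Saa2 and 7 of 20 for Orm1. With no background subtraction the 3 differences were -3.26, -2.64 and -1.08, and with the authors' values -2.93, -2.54 and -0.94. Saa2 was above background in 3 of the 4 homozygous livers. Saa1 and Saa2 are close paralogs, and their probes may not tell them apart. Without wild-type mice 1 and 2 the median of the list was -1.51 and 2 genes fell, where 0.175% of all probes passed in either direction. They were Saa2 (-2.94, limma adjusted p = 0.0459) and Lcn2 (-3.29, 0.0353), whereas Saa1 (0.0828) and Orm1 (0.176) did not pass. With all 8 livers Lcn2 was at -6.06 (adjusted p = 0.0610). The part of this pattern in the levels of Cyp7a1 and Abcb11 was not tested.

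Cell type markers were read beside these values, where 0.368% of all tested liver probes rose and 0.535% fell by limma. The 8 tested hepatocyte markers had a mean centred level of -0.29, -0.22, -0.02 and 0.08 in the livers of wild-type mice 1 to 4. In homozygous livers it ran from 0.09 to 0.13, with a median difference of 0.13 and 0 calls. Of 6 liver macrophage markers on the array 5 were tested, and all 5 were below 0 (median -0.50 against 0.02 over all probes). Of these 1 fell, Vsig4 (-1.04, limma adjusted p = 0.0418). Without wild-type mice 1 and 2 the median was -0.61 and Clec4f, another macrophage marker, was the gene that fell (background 0.175% in either direction). The mean centred level of the 5 macrophage markers ran from 0.13 to 0.52 in wild-type and from -0.37 to -0.09 in homozygous livers. Of 7 neutrophil and monocyte markers on the array only S100a8 was tested. It had a mean level of 7.12 in wild-type livers and was above background in 2 of the 4 homozygous livers, so no size is given. Its limma adjusted p was 0.0491, a call kept in 4 of 19 alternative settings and lost without wild-type mice 1 and 2 (0.0945). In brain S100a8 and S100a9 of this list were tested, with 0 calls. Their mean centred level was 2.57 and 2.29 in the brains of wild-type mice 1 and 2, and from -1.27 to -0.21 in the other brains. Of 5 bile duct cell markers on the array 3 were tested (Krt7, Sox9 and Muc1), with 0 calls. Their mean centred level was 0.40, 0.33, 0.006 and -0.11 in the livers of wild-type mice 1 to 4. It ran from -0.24 to -0.08 in homozygous livers. None of the 3 small intestine markers on the array was detected often enough to be tested. The part of the marker shifts in the member values was not tested.

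**Figure D4:**
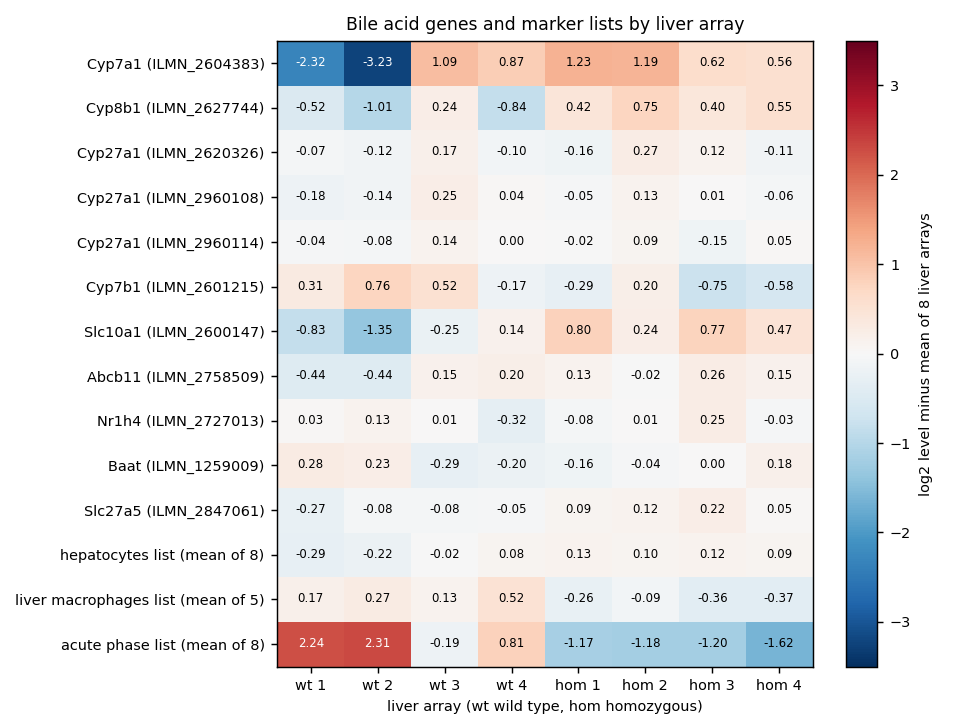
Log2 level minus the mean of the 8 liver arrays (colour and printed value) for each tested member probe and for the mean of the hepatocyte, liver macrophage and acute phase lists, by liver array (wt wild type, hom homozygous). Wild-type mice 1 and 2 hold the lowest Cyp7a1 values (-2.32 and -3.23) and the highest acute phase values (2.24 and 2.31). The acute phase list was chosen because it moves with these 2 livers.

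Other genes of the pathway were read from 3 lists. Of 19 other synthesis enzymes 12 were tested in liver, with a median difference of 0.16 against 0.02 over all probes. By limma 0 rose and 1 fell, where 0.368% of all tested probes rose and 0.535% fell. The gene that fell was Cyp2c70, which makes muricholic acids in mouse liver: it read 14.09, 14.07, 13.85 and 13.55 in wild-type livers and 13.33, 12.97, 12.81 and 12.51 in homozygous livers. The groups did not overlap, as for 13.0% of all tested probes. The difference was -0.99 (SE 0.19, limma adjusted p = 0.0475), or 0.505 of the wild-type level. Without wild-type mice 1 and 2 the difference was -0.76 (adjusted p = 0.189), and 9 of 20 alternative settings kept the call. The other 11 enzymes of this list were above 0 and did not pass, with Akr1c14, a hydroxysteroid dehydrogenase named after its value was seen, at 0.45 (adjusted p = 0.0952) as the largest.

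Of 17 other transport genes 11 were tested, with a median of 0.38. By limma 1 rose and 0 fell, against the same 0.368% and 0.535% of all tested probes. The organic anion transporter Slco1a4, which can carry bile acids into hepatocytes, read 6.65, 6.76, 7.05 and 7.41 in wild-type livers and 8.35, 7.84, 8.30 and 8.29 in homozygous livers. The groups did not overlap, again as for 13.0% of all tested probes. The gene rose by 1.23 on the log2 scale (SE 0.18, limma adjusted p = 0.0334), or 2.34-fold. The rise was 0.76 with the authors' values and 0.81 with no background subtraction. It was 0.96 higher without wild-type mice 1 and 2 (adjusted p = 0.0864), and 12 of 20 alternative settings kept the call. The largest fitted value of this list belonged to Abcg8, a sterol export half-transporter named after its value was seen, at 1.48 (SE 0.49, adjusted p = 0.138); wild-type mouse 1 read 8.21, wild-type mouse 2 read 8.14, and the other 6 livers ranged from 9.86 to 10.97. Abcc3, a basolateral exporter named after its value was seen, was at 0.95 (adjusted p = 0.0892). Without wild-type mice 1 and 2 Abcg8 was at 0.48 and Abcc3 at 0.51.

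Of 27 regulators and receptors 21 were tested and 0 passed, against 0.903% of all tested probes, with a median of 0.04 and 11 above 0. The largest values were those of Dbp, a circadian transcription factor, at 2.50 (SE 0.72, limma adjusted p = 0.111), and Egr1, an immediate early factor, at -1.86 (SE 0.44, adjusted p = 0.0738). Wild-type livers read 7.44, 7.78, 10.98 and 10.36 for Dbp, and the homozygous mean was 11.64. Without wild-type mice 1 and 2 Dbp was at 0.98 and Egr1 at -1.08. The FGF15 co-receptor gene Klb (0.82, adjusted p = 0.0536) and the coactivator gene Ppargc1a (0.80, adjusted p = 0.0508), both named after their values were seen, lay just outside the threshold. With no background subtraction Klb was at 0.54 and Ppargc1a at 0.26, and with the authors' values at 0.50 and 0.36. With wild-type mice 1 and 2 left out, 0 genes passed in each of the 3 lists, with medians of 0.10 for synthesis enzymes, 0.25 for transport genes and 0.16 for regulators.

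**Figure D5:**
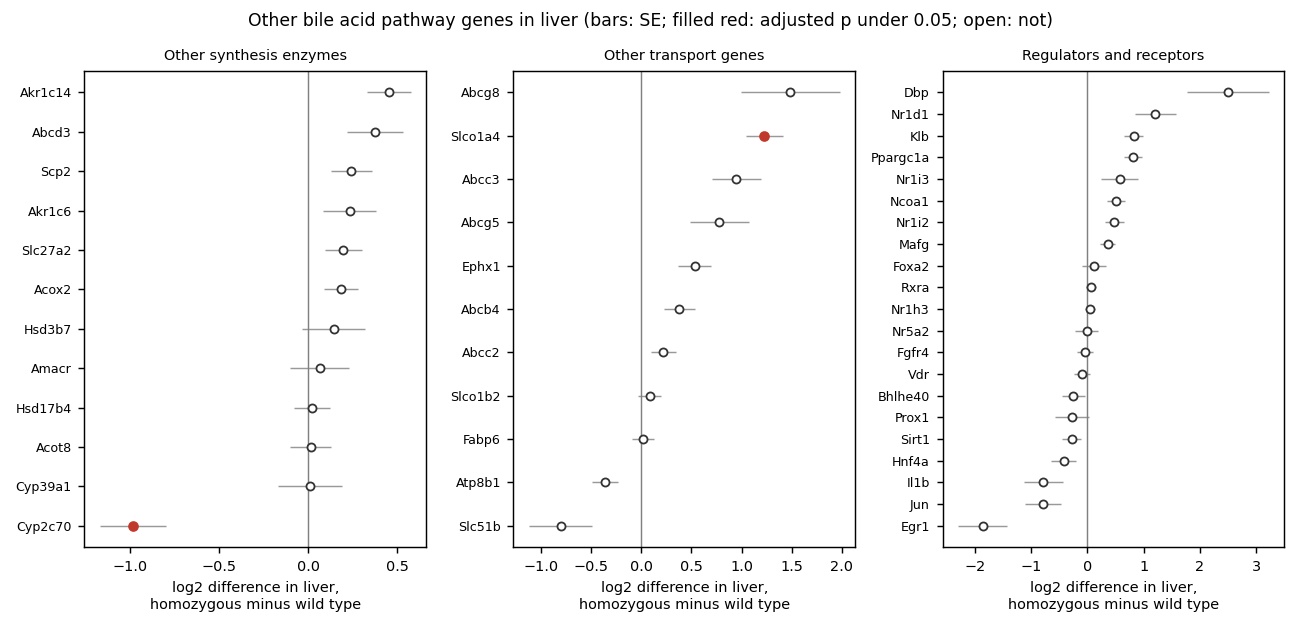
Log2 difference in liver, homozygous minus wild type, with the SE of the fit, for the tested genes of 3 lists of other synthesis enzymes, transport genes, and regulators and receptors. Filled points mark the 2 genes with an adjusted p under 0.05, Cyp2c70 at -0.99 and Slco1a4 at 1.23.

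Likeness to the classic-route genes was described by the root mean square difference between centred log2 levels over the 8 liver arrays, among probes with an SD of at least 0.5 times that of the member. For Cyp7a1 (SD 1.75) the 3 nearest genes among 179 candidate probes were Sucnr1 (0.50), Ppargc1b (0.51) and Dbp (0.61). Sucnr1, the succinate receptor gene, was low in wild-type mouse 1 (7.75) and wild-type mouse 2 (7.11) and ranged from 9.87 to 10.35 elsewhere. For Cyp8b1 (SD 0.68) the nearest genes among 2155 candidate probes were Prkd3, Trib3 and Gabarapl1, each at 0.25. Trib3, a pseudokinase gene induced by cell stress, read 4.45, 4.66, 5.24 and 4.77 in wild-type livers and 5.84, 6.11, 5.63 and 5.68 in homozygous livers, and was above background in 2 of the 4 wild-type livers. All points share the same 8 arrays and 1 normalization, and Nr0b2 was not compared because it was not detected.

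In brain the same genotype comparison could be made for 4 member probes of 2 genes. Of these 0 passed limma's adjusted threshold, against a background of 0.0144% (2 of 13862 probes), and 0 had an unadjusted p under 0.05, against 3.20%. No member's groups failed to overlap, against 2.06% of all probes. Cyp7b1 read 8.88, 8.37, 8.88 and 8.45 in wild-type brain and 8.77, 8.84, 8.55 and 8.55 in homozygous brain, a difference of 0.03 (SE 0.15, 95% interval -0.30 to 0.36). It was -0.08 (SE 0.11) within the 4 brighter arrays and 0.14 (SE 0.12) within the 4 dimmer ones.

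The brightest Cyp27a1 probe read 7.44, 7.02, 7.33 and 7.30 in wild-type brain and 7.15, 7.35, 7.23 and 7.08 in homozygous brain, a difference of -0.07 (SE 0.12, 95% interval -0.34 to 0.20). The other probes gave 0.15 (SE 0.11) and 0.10 (SE 0.14), so the 3 probes did not share a direction, and each kept its sign within the brighter and within the dimmer arrays. Of the other pathway genes 8 synthesis enzymes, 4 transport genes and 12 regulators were tested in brain, and 0 passed. Their medians were 0.02, 0.10 and -0.01. The 2 largest of each list were Acox2 (-0.48) and Abcd3 (0.14), peroxisomal side-chain shortening genes, then Abcb4 (0.18) and Slco1a4 (0.17), and Prox1 (0.27) and Nr1d1 (0.19). All 6 were smaller with no background subtraction, Acox2 most of all at -0.12, where Abcd3 was at 0.12.

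Whether the genotype difference itself differed between liver and brain was tested for the 4 member probes measured in both tissues. Of these 0 passed, against a background of 0.105% (11 of 10492 probes), and 1 had an unadjusted p under 0.05, against 10.9%. It was Cyp7b1, whose difference was -0.62 in liver and 0.03 in brain on the scale of all 16 arrays. The liver value was lower than the brain value by -0.66 (SE 0.28, limma adjusted p = 0.394), so a tissue difference was not shown. The 3 Cyp27a1 probes gave -0.10, 0.09 and -0.12, with SE of 0.16 to 0.17 and adjusted p of at least 0.850. The liver-against-brain and the genotype comparisons share the wild-type arrays.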

How the data were processed

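The authors deposited bead summary signals, linear intensity values that are not normalized, beside a detection p-value for each probe and array, and a second table of normalized intensity values. Per the submitters' processing notes, GenomeStudio 2011.1 was used; its settings are not given in the sources used here. Signals were background-corrected with nec of limma 3.58.1 in R 4.3.3 (offset 16), quantile-normalized within a tissue, or over all 16 arrays for tests across tissues, and put on the log2 scale. Probes with a detection p-value under 0.05 on at least 4 of 8 arrays were tested with lmFit and eBayes, and Benjamini-Hochberg adjustment ran over all tested probes, with a threshold of 0.05. Single values had a two-sided exact permutation test over the 70 splits.

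Of 25697 probes 23978 carried 1 gene symbol in the platform annotation, 1719 none and 0 several. Promoter windows came from RefSeq (GRCm38.p6), and the deposited tables name no build. Brain and liver of 1 mouse pair by the animal named in the labels; deviations of wild-type pairs correlated by 0.0169 to 0.109. The fit was tested on simulated data drawn independently for each probe and array. That test does not cover arrays displaced together, such as the livers of wild-type mice 1 and 2. All 10 genes, the 3 pathway lists and the marker lists were chosen with earlier results of these data known. Named from the lists were genes past the threshold, otherwise the 2 with the largest absolute change; other list genes are said to be named after their values were seen, and markers are named where they passed or were the tested ones. On arrays the number of animals limits the precision. Alternatives covered background correction, scaling, the detection filter, array weights, the samples in the fit and blocks.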

Additional observations from a re-analysis of the deposited data

Results flagged for a closer look

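Among 30 groups of 4 arrays examined for the member probes, 1 held an array whose gap to its nearest neighbour, divided by the range of the group, exceeded Dixon's 95% critical value. It was Slc27a5 in wild-type liver, where mouse 1 read 12.21 and the others 12.39 to 12.42, a ratio of 0.865. Chance gives such a gap in about 1 of 20 groups.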

How the results depend on the processing

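In liver the member count of 0 was 6 with array weights and 2 in the fit over all 16 arrays, and 0 to 2 when single mice were left out (2 without wild-type mouse 3). The whole-table count of 108 was 169 with median scaling, 49 with quantiles over 16 arrays, 30 with detection on all 8 arrays, 35 with no filter, 2928 with array weights, 798 in the fit over all 16 arrays, 21 without wild-type mice 1 and 2, and 0 to 940 when single mice were left out. Same-numbered wild-type and homozygous mice are different animals, and their deviations correlated by -0.0359 to -0.00182 in liver and -0.509 to 0.56 in brain; a replicate block gave 32 calls in liver and 1 in brain and changed no member count. The brain count of 2 was 1 with no background subtraction, 1 with the authors' values, 0 with detection on all 8 arrays, 0 without wild-type mice 1 and 2, 5 with brightness as a block, and, chosen after seeing the data, 4 within the brighter and 1 within the dimmer arrays; leaving out single mice gave 0 to 4. Detection on all 8 arrays cut the tissue calls from 11098 to 6712 and the member calls from 11 to 4. The 11 calls of the tissue-by-genotype test became 3 with the mouse as a replicate block, 17 with the authors' values, 1 without wild-type mice 1 and 2, and 0 to 69 when single mice were left out; the member count stayed at 0.

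Some values changed sign. Without wild-type mice 1 and 2 these were Cyp7a1 (-0.083, from 1.80), Abcb11 (-0.044), Baat (0.24), 2 Cyp27a1 probes (-0.0066 and -0.13) in liver, and Slco1a4 in brain (-0.10). A further Cyp27a1 probe was 0.011 with median scaling and 0.0017 with array weights. In brain Cyp7b1 was -0.017 with median scaling, -0.031 with array weights and -0.081 within the brighter arrays, where Slco1a4 was -0.0035. Leaving out single mice gave -0.021 to 0.12, -0.042 to 0.097 and -0.043 to 0.038 for the Cyp27a1 probes in liver, -0.11 to 0.084 for Baat, -0.019 to 0.13 for Nr1h4, -0.061 to 0.11 for Cyp7b1 in brain, and -0.019 to 0.14 for the tissue difference of the second Cyp27a1 probe. The causes of these changes were not tested. Dim probes, those of Slc10a1 and Nr0b2 above all, are limited by their signal over background.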
